A study of Homo sapiens with 18 samples.

Results

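The comparison described here asks how far the transcriptional response of a breast cancer cell line to docosahexaenoic acid (DHA) depended on which of 2 derivatives of that line received it. For every gene, the log2 change under DHA in sh-IGFBP6 cells was set against the log2 change under DHA in sh-LUC cells, and the difference of these differences was tested. The genes that passed were then sorted into those whose response reversed between the lines, with a called rise in one and a called fall in the other, and those whose responses ran the same way and differed only in size. Of 14250 genes tested in the 12 libraries used, out of 18 in the whole series, 3112 were called for the difference; 330 of these reversed and 259 differed only in size.

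The cells were MDA-MB-231, a human basal-like breast adenocarcinoma line. One derivative, sh-IGFBP6, carries a knockdown of IGFBP6, the gene of insulin-like growth factor binding protein 6, and the other, sh-LUC, is the control line with the hairpin named LUC, labelled as wild type. The 4 groups were sh-IGFBP6 cells under 200 µM DHA, sh-IGFBP6 cells in control medium, sh-LUC cells under 200 µM DHA and sh-LUC cells in control medium, with 3 libraries in each. Exposure lasted 24 h, and the control medium held 0.5% DMSO and 0.5% ethanol by volume. The DHA medium held 0.5% DMSO with DHA given in ethanol; the labels do not state its share of ethanol, and whether it matched the control medium is unknown. RNA was depleted of ribosomal RNA and sequenced in bulk. Each genotype was represented by 1 line, so the knockdown and any other difference between these 2 lines cannot be told apart. The labels do not say whether the libraries of a group came from separate cultures, and p-values here measure the spread between these libraries, which may be technical.

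DHA is a long-chain omega-3 polyunsaturated fatty acid. Inside cells it is stored in lipid droplets, activates the lipid-sensing nuclear receptors of the PPAR family and lowers the processing of SREBP, the transcription factor that drives sterol and fatty acid synthesis genes. In phospholipids its double bonds are readily oxidised, and runaway lipid peroxidation that depends on iron is the hallmark of ferroptosis, which glutathione, the cystine importer SLC7A11 and the peroxidase GPX4 hold back. Oxidised lipids and misfolded proteins are sensed by separate programmes. NRF2 turns on antioxidant genes, HSF1 turns on cytosolic chaperones, the unfolded protein response turns on chaperones of the endoplasmic reticulum, and ATF4 turns on amino acid supply.

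Libraries held 3174015 to 6592609 gene counts in sh-IGFBP6 cells under DHA, 2994716 to 4660268 in control sh-IGFBP6 cells, 5666029 to 7937608 in sh-LUC cells under DHA and 2708143 to 4043424 in control sh-LUC cells. IGFBP6 itself stood at 0.951, 1.24 and 0.793 CPM (counts scaled to a common library size with TMM) in sh-IGFBP6 cells under DHA and 0.645, 1.45 and 2.37 CPM in control sh-IGFBP6 cells, against 13.1, 15.3 and 16.1 CPM in sh-LUC cells under DHA and 22.4, 21.5 and 18.4 CPM in control sh-LUC cells. Every sh-IGFBP6 library lay below every sh-LUC library, which is the direction the labels give, and the difference between lines in the DHA response of this gene was not called (-0.08 ± 0.54 log2, adjusted p = 0.934). All 5 markers of the mesenchymal state of the line (VIM, FN1, ZEB1, CD44 and AXL) were present, with summed levels of 2720 to 2920 and 3320 to 3330 CPM in sh-IGFBP6 cells under DHA and in control medium, and 5720 to 6050 and 6110 to 6220 CPM in sh-LUC cells under DHA and in control medium. The 12 leukocyte markers summed to between 1.59 and 6.82 CPM across the 12 libraries, with MS4A1 at 0 in all of them.

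The DHA response was called for 5082 genes in sh-IGFBP6 cells (35.7%) and for 2540 in sh-LUC cells (17.8%). In sh-IGFBP6 cells 2435 genes rose (17.1% of those tested) and 2647 fell (18.6%), against 1092 that rose (7.66%) and 1448 that fell (10.2%) in sh-LUC cells, by edgeR's quasi-likelihood test with an adjusted p of less than 0.05. A fall or rise of at least 2-fold was called for 686 genes in sh-IGFBP6 cells and 257 in sh-LUC cells. With all 12 libraries thinned to the total of the smallest, the responses called were 4304 and 1898. The difference between the lines was called for 21.8% of genes, higher in sh-IGFBP6 cells for 1479 (10.4%) and lower for 1633 (11.5%), and 33.1% had an unadjusted p below 0.05. Over the 11614 genes averaging 5 CPM or more, the responses had a standard deviation of 0.476 log2 units in sh-IGFBP6 cells and 0.32 in sh-LUC cells, and their Pearson correlation was 0.261; this correlation is across genes, which are not independent replicates, and the 2 responses share no library.

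Of the 3112 genes called for the difference, 2264 (15.9% of those tested) had a DHA response called in 1 line only, 1786 of them in sh-IGFBP6 cells (830 rises, 5.82%, and 956 falls, 6.71%) and 478 in sh-LUC cells (214 rises, 1.5%, and 264 falls, 1.85%). A response called in 1 line and missed in the other is not by itself a reversal, although for 1527 of these 2264 genes the 2 estimates had opposite signs. The 330 reversed genes (2.32%) split evenly, 165 rising in sh-IGFBP6 cells and falling in sh-LUC cells and 165 doing the opposite. Both responses exceeded 1.5-fold for 20 of the first kind and 9 of the second, so in most of the 330 at least one of the opposite responses was under 1.5-fold. Of these 29 genes, 15 were still called reversed without library 2 of sh-LUC cells under DHA, and 20 to 26 without any 1 of the other libraries; the signs stayed opposite in all 29 under each of these 12 omissions. The 259 genes that differed only in size (1.82%) were mostly those with the larger response in sh-IGFBP6 cells, 99 larger rises and 120 larger falls, against 19 larger rises and 21 larger falls in sh-LUC cells. A further 219 genes were called for the difference with neither line's response called, and 40 were below 1 CPM on average in one of the lines and were not classified. The scaling sets the balance of directions: with library totals alone in place of TMM, 3633 genes were called, 25.7% of them higher in sh-IGFBP6 cells in place of 47.5%, the median difference of all genes lay at -0.136 log2 in place of -0.0188, and the reversed genes split 89 to 360. Small changes in either line are therefore given as values of this scaling.

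**Figure D1:**
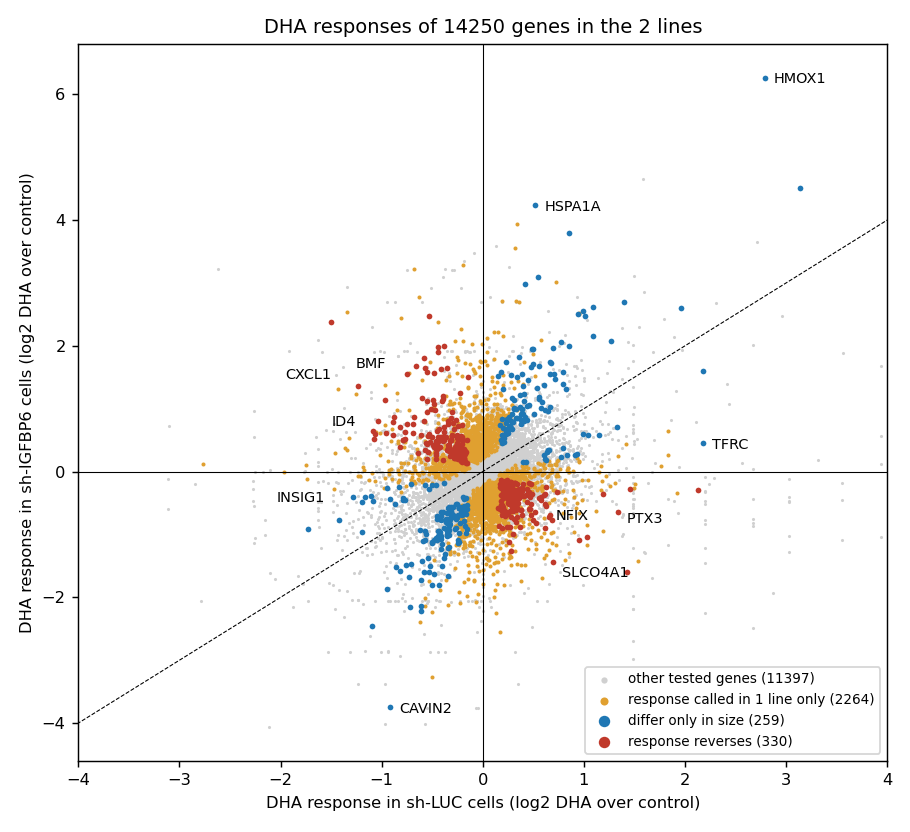
Each point is 1 of 14250 genes, placed by its DHA response in sh-LUC cells (horizontal, log2 DHA over control) and in sh-IGFBP6 cells (vertical, same scale), with the diagonal marking equal responses and colours marking the classes of called genes. The 330 reversed genes lie in the upper left and lower right quadrants, and the large size differences include HMOX1 (log2 6.26 in sh-IGFBP6 cells and 2.79 in sh-LUC cells) and CAVIN2 (-3.75 and -0.92); 3 genes lie outside the axes.

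Among the genes that rose in sh-IGFBP6 cells and fell in sh-LUC cells, BMF, which encodes a pro-apoptotic BH3-only protein (GRCh38 chr15:40087890-40108892, minus strand), was one of the clearest. It had 8.88, 7.91 and 8.46 CPM in sh-IGFBP6 cells under DHA against 2.90, 2.06 and 3.68 CPM in control sh-IGFBP6 cells. In sh-LUC cells BMF had 14.3, 18 and 17.3 CPM under DHA against 24.6, 26 and 32.7 CPM in control medium. The treated and control libraries did not overlap in either line, and they moved in opposite directions. Genes named by rank, here and below, were chosen for such separation in each line with a called response. For them it is a condition of the choice and adds no support. Up to 4 members of each gene list below were named for the smallest p of the difference. That choice favours such separation, which adds little support for them either. The BMF response was 1.55 ± 0.29 log2 (± standard error, here and below, with 3 libraries a group; adjusted p = 1.13e-06) in sh-IGFBP6 cells and -0.75 ± 0.13 (adjusted p = 4.31e-06) in sh-LUC cells, a difference of 2.31 ± 0.32 (adjusted p = 5.81e-10). BMF stayed lower in sh-IGFBP6 than in sh-LUC cells, by log2 ratios of -1.01 ± 0.17 under DHA and -3.31 ± 0.27 in control medium.

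ID4, an inhibitor of DNA binding that acts downstream of BMP receptors, had 4.76, 5.58 and 6.08 CPM in sh-IGFBP6 cells under DHA against 2.26, 4.13 and 2.63 CPM in control medium, and 47.8, 49 and 46.9 CPM in sh-LUC cells under DHA against 91.7, 93.6 and 107 CPM in control medium. TLCD2, which encodes a membrane protein of the TLC domain family, had 12, 8.68 and 11.1 CPM under DHA against 5.80, 6.19 and 6.05 CPM in control medium in sh-IGFBP6 cells. In sh-LUC cells TLCD2 had 6.37, 6.47 and 5.81 CPM against 10.6, 11.9 and 9.18 CPM. SIPA1L2, a Rap GTPase activating protein, had 12.4, 11.8 and 9.79 CPM under DHA against 8.38, 4.34 and 8.16 CPM in control medium in sh-IGFBP6 cells. In sh-LUC cells SIPA1L2 had 11, 7.46 and 7.27 CPM against 15.9, 11.9 and 13.3 CPM. As their naming by rank required, treated and control libraries were apart in both lines for all 3 genes, in opposite directions. The differences between lines were 1.84 ± 0.30, 1.503 ± 0.30 and 1.45 ± 0.29 log2. RNVU1-28, a variant U1 small nuclear RNA, rose by 1.14 ± 0.26 log2 in sh-IGFBP6 cells and fell by 0.97 log2 in sh-LUC cells. Variant U1 genes are near-identical copies, and how reads were shared among them is uncertain. The chemokine CXCL1 and the mitochondrial transcripts MT-RNR2 and MT-ND6 complete the 8 named genes of this direction and are described with their groups.

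In the opposite direction, SLCO4A1, an organic anion transporter of the plasma membrane (chr20:62642445-62685785, plus strand), had 0.951, 1.40 and 2.64 CPM in sh-IGFBP6 cells under DHA against 4.84, 3.51 and 5.53 CPM in control sh-IGFBP6 cells. In sh-LUC cells SLCO4A1 had 94.5, 83.1 and 82.5 CPM under DHA against 52.7, 56.1 and 51.8 CPM in control medium. PTX3, a secreted pattern recognition protein of innate immunity (chr3:157436789-157443628, plus strand), had 20.3, 20.9 and 17.5 CPM under DHA against 35.5, 31.2 and 26.8 CPM in control medium in sh-IGFBP6 cells. In sh-LUC cells PTX3 had 12.4, 10.3 and 12.1 CPM against 4.55, 4.17 and 4.85 CPM. NFIX, a transcription factor of the nuclear factor I family (chr19:12995608-13098796, plus strand), had 26, 24.8 and 27 CPM under DHA against 41.3, 33 and 39.5 CPM in control medium in sh-IGFBP6 cells. In sh-LUC cells NFIX had 65.1, 69.5 and 63.5 CPM against 42.5, 45.5 and 40.8 CPM. For all 3 genes every treated library lay below every control library in sh-IGFBP6 cells and above every control library in sh-LUC cells. Their naming by rank required this separation. NFIX is the plainest case, since the control levels of the lines were close (-0.19 ± 0.11 log2 for sh-IGFBP6 over sh-LUC) and DHA separated them (-1.36 ± 0.10). The differences in response were -2.14 ± 0.38 log2 for SLCO4A1 (adjusted p = 8.42e-07), -1.98 ± 0.28 for PTX3 (adjusted p = 4.73e-10) and -1.17 ± 0.15 for NFIX (adjusted p = 2.62e-10).

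MIR924HG, the host transcript of a microRNA, fell by 0.90 log2 in sh-IGFBP6 cells and rose by 0.61 in sh-LUC cells. GRB7, an adaptor of receptor tyrosine kinases, responded by -1.09 and 0.95 log2 in sh-IGFBP6 and sh-LUC cells at a mean level of about 6 CPM. MSH5, a meiotic member of the MutS family, responded by -0.77 and 0.68, and CLMN, a calponin-domain membrane protein, by -0.73 and 0.66. HMMR, a spindle and hyaluronan-binding protein, responded by -0.82 and 0.53 and is taken up again with the mitotic genes.

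**Figure D2:**
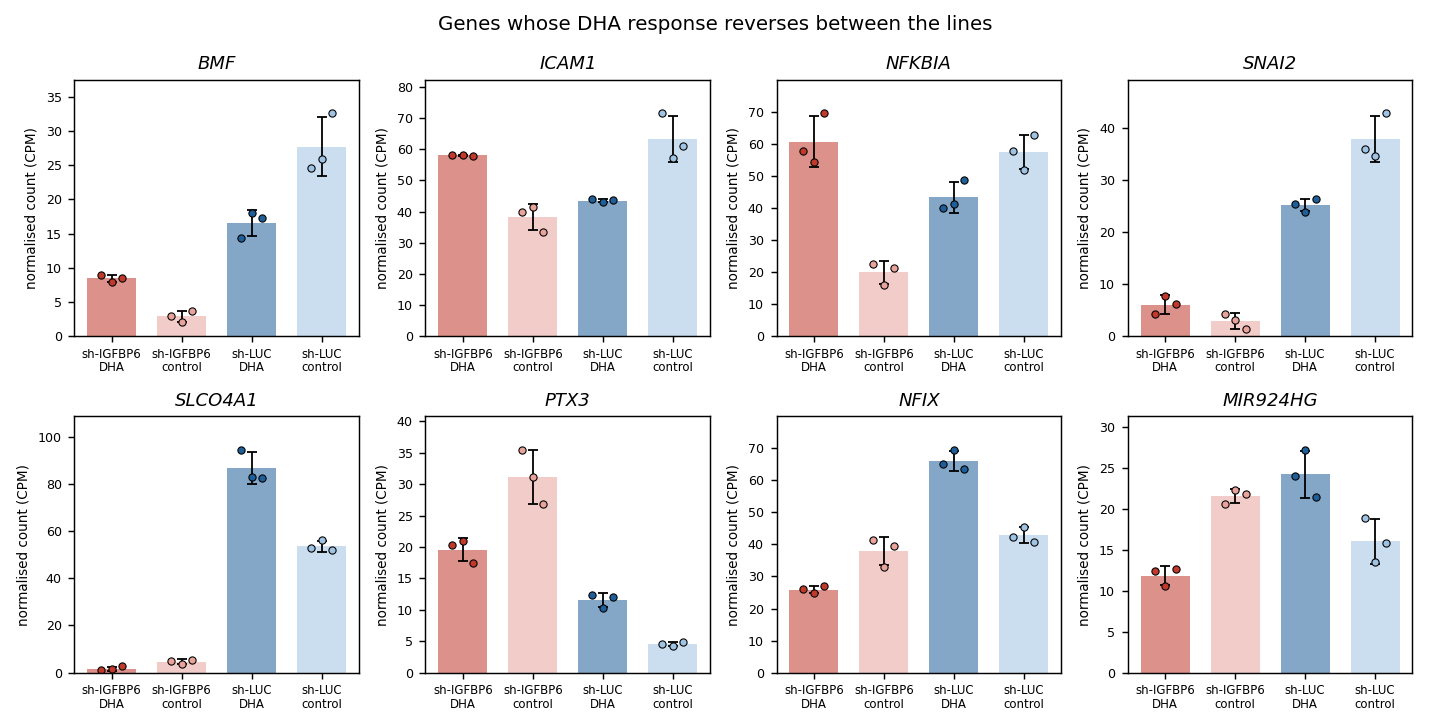
Normalised counts (CPM, vertical, from 0) of 8 genes whose DHA response reversed, with a bar for the mean of 3 libraries, an error bar for the standard deviation and a point for each library, for sh-IGFBP6 cells under DHA and in control medium and sh-LUC cells under DHA and in control medium. In the upper row (BMF, ICAM1, NFKBIA, SNAI2) DHA raised the mean in sh-IGFBP6 cells and lowered it in sh-LUC cells, and in the lower row (SLCO4A1, PTX3, NFIX, MIR924HG) it did the opposite.

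How firmly a gene sits among the reversed ones depends on its weaker response. Of the 16 reversed genes named by rank, 14 kept the called difference under all 21 alternative settings, but only 5 (BMF, SLCO4A1, PTX3, NFIX and MIR924HG) kept both opposite responses called in all of them. Without library 2 of sh-LUC cells under DHA the sh-LUC response missed the threshold for CXCL1 (adjusted p = 0.103), RNVU1-28 (0.0792), CLMN (0.104) and GRB7 (0.112). Without library 3 of that group it did so for HMMR (0.104). Without control sh-LUC library 1 it did so for GRB7 (0.0520) and HMMR (0.0524), and without control sh-LUC library 2 for TLCD2 (0.0549) and HMMR (0.389). Without control sh-LUC library 3 it did so for CXCL1 (0.686, where the response shrank to -0.47 log2), MSH5 (0.133), CLMN (0.128) and GRB7 (0.0690). The sh-IGFBP6 response was the one lost for SIPA1L2, without control sh-IGFBP6 library 2 (adjusted p = 0.132, 0.46 log2), and for ID4, without DHA libraries 2 (0.0561) or 3 (0.0514) or control libraries 1 (0.0828) or 3 (0.0742) of sh-IGFBP6 cells. The difference between lines stayed called for each of these genes without each of these libraries.

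The inflammatory genes under NF-kB, the transcription factor that drives cytokines, chemokines and its own inhibitors, rose in sh-IGFBP6 cells and seldom did in sh-LUC cells. Of 23 members tested, 17 were higher in the sh-IGFBP6 response (73.9%) and the other 6 were not called. For this list and those below, the share of all genes called was 21.8%, with 10.4% higher and 11.5% lower. Of the 23 members, 20 rose in sh-IGFBP6 cells, whereas in sh-LUC cells 1 rose and 6 fell. The median response of the list was 1.02 log2 in sh-IGFBP6 cells and -0.261 in sh-LUC cells, beside -0.0103 and 0.0063 for all genes. Reversal was called for 4 members: the inhibitor NFKBIA, the subunit RELB, the adhesion molecule ICAM1 and the neutrophil chemokine CXCL1. NFKBIA had 57.7, 54.4 and 69.6 CPM in sh-IGFBP6 cells under DHA against 22.6, 15.9 and 21.1 CPM in control sh-IGFBP6 cells. In sh-LUC cells NFKBIA had 39.8, 41.3 and 48.7 CPM under DHA against 57.6, 51.9 and 62.8 CPM in control medium. The treated and control libraries did not overlap in either line, with a difference of 2.04 ± 0.16 log2 (adjusted p = 1.58e-20). ICAM1 had 58, 58.1 and 57.9 against 39.99, 41.3 and 33.4 CPM in sh-IGFBP6 cells. In sh-LUC cells ICAM1 had 44.1, 42.9 and 43.6 CPM against 71.6, 57.1 and 61.2 CPM, with a difference of 1.13 ± 0.14. RELB responded by 1.80 and -0.59 log2 in sh-IGFBP6 and sh-LUC cells, although the sh-LUC fall was no longer called without library 2 of sh-LUC cells under DHA (adjusted p = 0.0539).

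Some members of the list encode secreted proteins. CXCL8, the neutrophil attractant interleukin 8, had 185, 209 and 191 CPM in sh-IGFBP6 cells under DHA against 37.7, 43 and 31.6 CPM in control sh-IGFBP6 cells. In sh-LUC cells CXCL8 had 7.25, 4.98 and 8.14 CPM under DHA against 7.58, 7.37 and 11.5 CPM in control medium. All 3 treated sh-IGFBP6 libraries lay well above the rest, and in sh-LUC cells the groups overlapped (response -0.44 ± 0.21, adjusted p = 0.147). CXCL2 rose by 3.21 ± 0.24 log2 and IL1B, the proinflammatory cytokine interleukin 1 beta, by 1.74 ± 0.07 in sh-IGFBP6 cells; their sh-LUC responses of -0.68 ± 0.52 and -0.02 ± 0.38 were not called, and the IL1B difference was lost with thinned counts (adjusted p = 0.0762). CXCL1 had 15.5, 17.1 and 17.7 CPM against 6.13, 6.81 and 6.58 CPM in sh-IGFBP6 cells. In sh-LUC cells CXCL1 had 1.42, 0.871 and 1.16 CPM against 1.52, 1.60 and 4.34 CPM, where control library 3 stood above all other sh-LUC libraries. The kappa B site (GGG and TTTCC with 2 bases between), searched on both strands from 250 bases before to 50 after the start, was found in 9 of the 18 members of the list with a promoter in RefSeq (50%), against 2.12% of the promoters of 10595 tested genes. It is shown for the reversed chemokine CXCL1 (RefSeq, GRCh38.p14, chr4:73869193-73869392, plus strand, the 200 bases before the start), with the site in capitals; a match describes letters, and no binding was measured.
CXCL1: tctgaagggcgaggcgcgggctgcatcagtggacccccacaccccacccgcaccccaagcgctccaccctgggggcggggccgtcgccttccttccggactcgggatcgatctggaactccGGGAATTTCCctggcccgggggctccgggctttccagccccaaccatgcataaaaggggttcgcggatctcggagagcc

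Immediate early genes, which encode short-lived transcription factors and phosphatases induced by growth factors and stress, went with them. Of 24 tested, 14 were higher in the sh-IGFBP6 response and 1 lower; 20 rose and 1 fell in sh-IGFBP6 cells, against 5 that rose and 3 that fell in sh-LUC cells, and the medians were 1.01 and 0.0931 log2. FOS rose by 2.704 ± 0.15 log2 and EGR1 by 1.53 ± 0.08 in sh-IGFBP6 cells, and their sh-LUC responses of 0.36 ± 0.33 and -0.20 ± 0.14 were not called. KLF6 had 331, 371 and 334 CPM in sh-IGFBP6 cells under DHA against 125, 134 and 106 CPM in control sh-IGFBP6 cells. In sh-LUC cells KLF6 had 217, 218 and 237 CPM under DHA against 213, 213 and 206 CPM in control medium. The sh-LUC libraries did not overlap either, but their change of 0.09 ± 0.06 log2 was not called (adjusted p = 0.345). JUND reversed, with responses of 0.99 ± 0.08 (adjusted p = 4.36e-19) in sh-IGFBP6 cells and -0.51 ± 0.06 (adjusted p = 9.10e-11) in sh-LUC cells. The member that went the other way was DUSP5, an ERK phosphatase, which rose by 0.19 ± 0.06 in sh-IGFBP6 cells and 0.61 ± 0.08 in sh-LUC cells. The smaller rise was not called without control sh-IGFBP6 library 3 (adjusted p = 0.0942), with library totals in place of TMM (0.0826) or with no filter on low counts (0.103).

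Genes of BMP and TGF-beta signalling held several large differences. Of 27 tested, 12 were higher in the sh-IGFBP6 response and 4 lower, and in sh-LUC cells 13 fell and 2 rose. ID3, an inhibitor of DNA binding and a direct target of BMP receptors, had 23.1, 22.2 and 23.3 CPM in sh-IGFBP6 cells under DHA and 18.1, 18 and 27.1 CPM in control sh-IGFBP6 cells. In sh-LUC cells ID3 had 10.3, 4.85 and 11.3 CPM under DHA against 58.8, 62.2 and 54.6 CPM in control medium. The response was 0.12 ± 0.18 log2 in sh-IGFBP6 cells (adjusted p = 0.652), and the fall was called in sh-LUC cells (-2.77 ± 0.18, adjusted p = 2.43e-15). The order of the lines crossed, with log2 ratios of sh-IGFBP6 over sh-LUC of 1.41 ± 0.19 under DHA and -1.47 ± 0.16 in control medium. INHBA, the activin A subunit (chr7:41667168-41705834, minus strand), had 80.2, 91.6 and 71.9 CPM against 25.8, 28.5 and 24.2 CPM in sh-IGFBP6 cells. In sh-LUC cells INHBA had 32.7, 35.1 and 36.8 CPM against 54.6, 45.9 and 55.6 CPM, and the response was called reversed, with a difference of 2.22 ± 0.15 (adjusted p = 4.04e-25). SKIL, a nuclear brake on SMAD signalling, reversed as well, with 1.57 ± 0.11 log2 in sh-IGFBP6 cells and -0.49 ± 0.08 in sh-LUC cells. The inhibitory SMAD7 responded by 1.65 and -0.35; its sh-LUC fall was lost without sh-LUC DHA library 2 (adjusted p = 0.190), control library 2 (0.112) or control library 3 (0.0582). The members that were lower in the sh-IGFBP6 response were the receptors TGFBR2 and BMPR1A, the transducer SMAD1 and the activin antagonist FST, which fell by 0.90 log2 in sh-IGFBP6 cells and stood at 0.00 in sh-LUC cells. For BMPR1A, at about 48 CPM, the difference was -0.41 ± 0.13 (adjusted p = 0.0166) and was not called without control sh-IGFBP6 library 3 (adjusted p = 0.0586), by DESeq2 (0.0870), with no filter on low counts (0.0504) or with thinned counts (0.122).

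Mesenchymal and matrix genes split in both directions: 9 of 36 were higher in the sh-IGFBP6 response and 6 lower (41.7%, beside 21.8% of all genes). With library totals in place of TMM the balance was 7 and 8. The 6 lower members were CCN2, LAMB3, CCN1, COL5A2, FN1 and VIM. FN1 and VIM, also markers of the mesenchymal state of the line, had differences of -0.42 and -0.37 log2. VIM was called reversed, falling in sh-IGFBP6 cells and rising in sh-LUC cells, and stayed so in 13 of 21 alternative settings. The differences were -0.72 for LAMB3, -0.32 for CCN1 and -1.57 for COL5A2, the last not called by DESeq2. SNAI2, the transcription factor Slug, had 4.12, 7.75 and 6.08 CPM in sh-IGFBP6 cells under DHA and 4.19, 3.10 and 1.32 CPM in control sh-IGFBP6 cells. In sh-LUC cells SNAI2 had 25.3, 23.9 and 26.3 CPM under DHA against 36, 34.6 and 42.9 CPM in control medium. The sh-IGFBP6 groups overlapped and the sh-LUC groups did not; both opposite responses passed the test (1.18 ± 0.31, adjusted p = 6.59e-04, and -0.60 ± 0.12, adjusted p = 4.07e-05). The protease inhibitor TIMP1 responded by 0.83 and -0.27 log2. Its sh-LUC fall was not called with no filter on low counts (adjusted p = 0.0895), and with thinned counts TIMP1 was not called reversed. COL1A1, a fibrillar collagen that also stood in the list of fibroblast and endothelial markers, responded by 0.64 and -0.45, the first of which was not called without sh-IGFBP6 DHA library 1 (adjusted p = 0.0702) or control library 3 (0.0741). The 12 markers of that list summed to 242 to 264 CPM in sh-IGFBP6 cells under DHA and 203 to 213 in control medium. In sh-LUC cells they summed to 47.1 to 56.4 CPM under DHA and 81.1 to 91.7 in control medium. The highest single marker averaged 235 and 194 CPM in sh-IGFBP6 cells under DHA and in control medium, which is most of those sums. In sh-LUC cells the highest marker averaged 29 and 39.8 CPM. The fibroblast gene COL1A2 was at 0 in all groups but control sh-LUC cells, and the endothelial gene CDH5 in all but control sh-IGFBP6 cells. Whether the marker sum has a part in these results was not tested. CCN2, a matrix-associated growth factor, fell by 0.86 log2 in sh-IGFBP6 cells; its small rise of 0.16 ± 0.06 in sh-LUC cells was lost without sh-LUC DHA libraries 1 (0.0741) or 2 (0.267) or control libraries 1 (0.212) or 2 (0.174, adjusted p in each case). The interstitial collagenase MMP1, the gene with the highest share of counts in treated sh-IGFBP6 cells and named here for that reason after its values were seen, had 15888, 16423 and 16301 CPM under DHA against 9267, 9193 and 8706 CPM in control sh-IGFBP6 cells, and was at 9.20, 17.2 and 18.3 against 23.5, 8.98 and 10.7 CPM in sh-LUC cells; the difference in response was not called (0.69 ± 0.38, 95% interval -0.19 to 1.56).

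Cytosolic heat shock genes, most of them chaperones, mostly rose in sh-IGFBP6 cells, and few changed in sh-LUC cells. Of 18 tested, 11 were higher in the sh-IGFBP6 response and the other 7 were not called; 14 rose in sh-IGFBP6 cells, against 2 that rose and 1 that fell in sh-LUC cells, with medians of 0.711 and 0.0949 log2. HSPA1B, an inducible HSP70, had 624, 692 and 669.9 CPM in sh-IGFBP6 cells under DHA against 52.6, 41.3 and 51.9 CPM in control sh-IGFBP6 cells. In sh-LUC cells HSPA1B had 112, 106 and 125 CPM under DHA against 64.8, 64.4 and 60.7 CPM in control medium. It rose in both lines, by 3.79 ± 0.08 and 0.85 ± 0.08 log2, a difference of 2.94 ± 0.11 (adjusted p = 1.90e-42). Its near-identical neighbour HSPA1A rose by 4.24 ± 0.16 and 0.52 ± 0.15; the sharing of reads between these copies is uncertain, and the sh-LUC rise of HSPA1A was not called without library 3 of sh-LUC cells under DHA (adjusted p = 0.163). The co-chaperone DNAJB1 had 409, 414 and 428 CPM against 99.3, 84.5 and 85.8 CPM in sh-IGFBP6 cells. In sh-LUC cells DNAJB1 had 229.6, 214 and 248 CPM against 229, 205 and 192 CPM; its sh-LUC response of 0.15 ± 0.06 was called only without sh-LUC DHA library 2 (adjusted p = 0.0209) or control library 1 (0.0185), among the settings that left out a library. HSPH1, an HSP70 nucleotide exchange factor, rose by 0.82 ± 0.06 in sh-IGFBP6 cells, with -0.11 ± 0.06 in sh-LUC cells (adjusted p = 0.196); without sh-LUC DHA library 3 that fall was called and the gene counted as reversed (adjusted p = 0.0302).

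The heat shock element (GAA, TTC and GAA with 2 bases between each), searched on both strands, was found in the promoters of 3 of 17 members (17.6%), those of HSPA6, HSPA8 and DNAJA1, against 0.302% of all those searched. The 250 bases before the start of HSPA8, the constitutive HSP70, are shown because they hold the element on both strands (RefSeq, GRCh38.p14, chr11:123062137-123062386, minus strand, written 5′ to 3′ along the gene, elements in capitals).
HSPA8: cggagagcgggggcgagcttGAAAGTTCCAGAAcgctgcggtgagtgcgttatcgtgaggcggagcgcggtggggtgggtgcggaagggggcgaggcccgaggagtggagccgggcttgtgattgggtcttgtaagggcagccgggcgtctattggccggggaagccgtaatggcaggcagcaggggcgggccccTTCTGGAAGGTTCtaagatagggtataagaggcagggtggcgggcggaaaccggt
HSPA8, printed for its promoter and not by rank, had 3658, 3719.5 and 3481 CPM in sh-IGFBP6 cells under DHA against 2143, 1751 and 2139.5 CPM in control sh-IGFBP6 cells. In sh-LUC cells HSPA8 had 1275, 1105 and 1410.1 CPM under DHA against 1213, 1258 and 1306 CPM in control medium. The sh-IGFBP6 groups were apart (response 0.85 ± 0.08 log2), and the sh-LUC response was 0.00 ± 0.09.

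Folding and degradation genes of the endoplasmic reticulum showed the same contrast over more members: of 26 tested, 21 were higher in the sh-IGFBP6 response and 5 were not called; 22 rose in sh-IGFBP6 cells, and in sh-LUC cells 6 rose and 2 fell. HSPA5, the lumenal HSP70 known as BiP, had 1798, 1808 and 1824 CPM in sh-IGFBP6 cells under DHA against 628, 606 and 574 CPM in control sh-IGFBP6 cells. In sh-LUC cells HSPA5 had 759, 772 and 781 CPM under DHA against 625, 695 and 715 CPM in control medium. The responses were 1.59 ± 0.05 log2 in sh-IGFBP6 cells and 0.18 ± 0.05 in sh-LUC cells, and the smaller one was not called without control sh-LUC library 1 (adjusted p = 0.114). HERPUD1, a component of the degradation machinery, rose by 1.83 ± 0.09 in sh-IGFBP6 cells and 0.36 ± 0.09 in sh-LUC cells. HSP90B1, the lumenal HSP90, reversed: it stood at 1761, 1932 and 1802 CPM against 1106, 1156 and 1039.6 CPM in sh-IGFBP6 cells. In sh-LUC cells HSP90B1 had 781, 834 and 828 CPM against 876, 964 and 981 CPM, with responses of 0.74 ± 0.05 and -0.21 ± 0.05. The sh-LUC fall was small, and the treated and control libraries did not overlap. With no filter on low counts that fall was not called (adjusted p = 0.12).

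The endoplasmic reticulum stress response element, which is CCAAT and CCACG with 9 bases between, was found on either strand in 6 of 24 promoters of this list (25%), those of HSPA5, HSP90B1, CALR, CANX, CRELD2 and XBP1, against 0.132% of all those searched. The 200 bases before the HSPA5 start are shown with the element in capitals (RefSeq, GRCh38.p14, chr9:125241344-125241543, minus strand, 5′ to 3′ along the gene).
HSPA5: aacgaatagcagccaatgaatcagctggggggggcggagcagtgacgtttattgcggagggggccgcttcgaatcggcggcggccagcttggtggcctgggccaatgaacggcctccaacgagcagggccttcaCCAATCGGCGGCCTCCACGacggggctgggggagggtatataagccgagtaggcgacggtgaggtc

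Proliferation genes fell under DHA in sh-IGFBP6 cells. Of 25 mitotic genes 24 were lower in the sh-IGFBP6 response and 1 was not called; 24 fell in sh-IGFBP6 cells, and in sh-LUC cells 5 rose and 1 fell. TOP2A, topoisomerase II alpha, had 364, 397 and 354 CPM in sh-IGFBP6 cells under DHA against 632, 621 and 639.8 CPM in control sh-IGFBP6 cells. In sh-LUC cells TOP2A had 943, 930.0 and 941 CPM under DHA and 889.6, 954 and 962 CPM in control medium. The sh-LUC libraries overlapped (response 0.00 ± 0.05 log2), and the difference was -0.76 ± 0.07 (adjusted p = 2.34e-15). The kinases AURKA and BUB1 and the spindle factor TPX2 fell by 0.86, 0.85 and 0.73 log2 in sh-IGFBP6 cells, with sh-LUC responses of 0.09 ± 0.06, 0.08 ± 0.06 and 0.07 ± 0.05. In bulk RNA, fewer dividing cells and less of these transcripts per cell cannot be told apart.

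DNA replication genes moved the same way with smaller changes. Of 31 tested 27 were lower in the sh-IGFBP6 response and 4 were not called; 25 fell and 1 rose in sh-IGFBP6 cells, against 8 that rose and 23 not called in sh-LUC cells, with medians of -0.318 and 0.14 log2. Reversal was called for 6 of them, among which GINS1, a subunit of the replicative helicase, had 20.9, 20.8 and 21.7 CPM in sh-IGFBP6 cells under DHA against 29, 33.2 and 33.4 CPM in control sh-IGFBP6 cells. In sh-LUC cells GINS1 had 75.9, 73.3 and 76.2 CPM under DHA against 60.6, 56.1 and 57.4 CPM in control medium. No treated library overlapped its controls in either line, and the responses were -0.61 ± 0.12 (adjusted p = 1.66e-05) and 0.37 ± 0.09 (adjusted p = 4.32e-04). RRM2, the ribonucleotide reductase subunit that limits deoxynucleotide supply, fell in sh-IGFBP6 cells (-0.19 ± 0.06) and rose in sh-LUC cells (0.46 ± 0.06); the smaller fall was not called without sh-IGFBP6 DHA library 1 (adjusted p = 0.0930) or control library 3 (0.202). HMMR, among the mitotic genes, is shown with the cell-cycle homology element TTTGAA, which was found on either strand in 14 of 21 promoters of that list, against 9.88% of all those searched; 2 adjoining copies lie in the 250 bases before its start (RefSeq, GRCh38.p14, chr5:163460382-163460631, plus strand, elements in capitals).
HMMR: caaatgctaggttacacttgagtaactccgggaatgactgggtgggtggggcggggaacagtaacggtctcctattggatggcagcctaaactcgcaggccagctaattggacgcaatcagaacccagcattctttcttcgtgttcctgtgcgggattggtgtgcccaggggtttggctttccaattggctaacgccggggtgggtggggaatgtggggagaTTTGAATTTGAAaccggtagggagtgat

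Serine synthesis and amino acid supply rose under DHA in sh-LUC cells more than in sh-IGFBP6 cells. PHGDH, the first enzyme of serine synthesis, had 32, 32.7 and 29.6 CPM in sh-IGFBP6 cells under DHA against 37.4, 43 and 35.5 CPM in control sh-IGFBP6 cells. In sh-LUC cells PHGDH had 19.3, 23.5 and 15.4 CPM under DHA against 3.41, 4.49 and 5.10 CPM in control medium. PSAT1, the next enzyme of the pathway (chr9:78297143-78330093, plus strand), had 149, 148 and 129 against 162, 198 and 156 CPM in sh-IGFBP6 cells. In sh-LUC cells PSAT1 had 137, 152 and 129.8 CPM against 49.3, 53.5 and 50.01 CPM. The control sh-LUC libraries were the low ones for both genes, and the log2 ratio of sh-IGFBP6 over sh-LUC for PSAT1 was 0.03 ± 0.07 under DHA and 1.76 ± 0.09 in control medium. Both were called as reversed, with differences of -2.43 ± 0.27 and -1.74 ± 0.11, but the falls in sh-IGFBP6 cells were small (-0.30 ± 0.12 and -0.28 ± 0.07); that of PSAT1 was lost without control sh-IGFBP6 library 2 (adjusted p = 0.143), and that of PHGDH without it (0.296) or any 1 of the 3 DHA libraries (0.0597, 0.0620 and 0.115). SHMT2, the mitochondrial serine hydroxymethyltransferase, stood at 0.05 ± 0.06 log2 in sh-IGFBP6 cells and rose by 0.84 ± 0.07 in sh-LUC cells.

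These enzymes are targets of the integrated stress response, the ATF4 programme, which split inside: of 22 tested, 5 were higher and 8 lower in the sh-IGFBP6 response, while 12 rose and 2 fell in sh-IGFBP6 cells and 17 rose and 1 fell in sh-LUC cells. The 5 higher members were DDIT3, PPP1R15A, CEBPB, GDF15 and ATF5. The ATF5 difference (0.56 ± 0.19, adjusted p = 0.0295) was lost in 12 of 21 alternative settings, among them library totals, DESeq2, no filter on low counts and 8 of the 12 that left out a library. DDIT3, the transcription factor CHOP, rose by 1.86 ± 0.14 log2 in sh-IGFBP6 cells with 0.49 ± 0.21 in sh-LUC cells (adjusted p = 0.0827); PPP1R15A, a phosphatase subunit that restores translation, rose by 1.38 ± 0.06 and 0.61 ± 0.07, CEBPB by 1.58 ± 0.08 and 0.79 ± 0.08, and the cytokine GDF15 by 2.15 ± 0.24 and 1.09 ± 0.13. TRIB3, a pseudokinase induced by CHOP and ATF4, went the other way, with 65.6, 60.6 and 66.4 CPM in sh-IGFBP6 cells under DHA against 44.2, 42.5 and 30.3 CPM in control sh-IGFBP6 cells. In sh-LUC cells TRIB3 had 44.9, 49.5 and 41.9 CPM under DHA against 18.6, 20.5 and 15.8 CPM in control medium. PCK2, the mitochondrial phosphoenolpyruvate carboxykinase, stood at -0.34 ± 0.16 in sh-IGFBP6 cells and rose by 1.19 ± 0.15 in sh-LUC cells; the sh-IGFBP6 value was called as a fall with library totals in place of TMM (adjusted p = 0.0485) or without control sh-IGFBP6 library 1 (adjusted p = 0.0406). CHAC1, a glutathione-degrading enzyme induced by ATF4, had responses of -0.29 ± 0.60 and 1.22 ± 0.32, and the difference of -1.51 ± 0.68 was not called (adjusted p = 0.143) except without control sh-IGFBP6 library 3 (3.15e-04) or sh-LUC DHA library 3 (0.0138), with no filter on low counts (0.00151) or with thinned counts (0.0425). ASNS, asparagine synthetase, at about 3 CPM, was called with a difference of -1.57 ± 0.60 (adjusted p = 0.0404), which leaving out any of 7 libraries removed; without control sh-IGFBP6 library 2 the adjusted p was 0.992.

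The enzymes that charge transfer RNAs and the amino acid importers followed the serine genes. Of 20 cytosolic aminoacyl-tRNA synthetases 13 were lower in the sh-IGFBP6 response and 7 were not called; 8 rose and 1 fell in sh-IGFBP6 cells, against 14 that rose in sh-LUC cells. YARS1, the tyrosyl-tRNA synthetase, had 212, 207 and 207 CPM in sh-IGFBP6 cells under DHA and 205, 227 and 196 CPM in control sh-IGFBP6 cells. In sh-LUC cells YARS1 had 157, 160.5 and 138 CPM under DHA against 87.9, 74.7 and 90.1 CPM in control medium. The sh-IGFBP6 libraries overlapped and the sh-LUC libraries did not, with a difference of -0.86 ± 0.10 (adjusted p = 4.69e-12). Of 14 amino acid transporters 7 were lower and 1 higher. The importers SLC7A1 and SLC38A1 stood at 0.10 ± 0.06 and -0.02 ± 0.05 log2 in sh-IGFBP6 cells and rose by 0.60 ± 0.06 and 0.67 ± 0.06 in sh-LUC cells. The member that went against the list was SLC3A2, the heavy chain shared by several exchangers, which rose by 1.55 ± 0.06 in sh-IGFBP6 cells and 0.67 ± 0.06 in sh-LUC cells.

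SLC7A11, the cystine importer that pairs with SLC3A2, rose more in sh-LUC cells. It had 749, 758 and 692 CPM in sh-IGFBP6 cells under DHA against 222, 275 and 227 CPM in control sh-IGFBP6 cells. In sh-LUC cells SLC7A11 had 266, 301 and 285 CPM under DHA against 63.7, 56.8 and 67.6 CPM in control medium. The groups were apart in both lines, the treated sh-IGFBP6 level was the highest of the 4, and the control sh-LUC level was the lowest. The rises of 1.60 ± 0.06 and 2.18 ± 0.08 differed by -0.58 ± 0.10 (adjusted p = 1.73e-06). TFRC, the transferrin receptor that brings iron into cells (chr3:196027183-196082189, minus strand), had the largest difference among the 19 genes whose rise was larger in sh-LUC cells, with 784, 840.5 and 770.1 CPM in sh-IGFBP6 cells under DHA against 609, 607 and 538 CPM in control sh-IGFBP6 cells. In sh-LUC cells TFRC had 457, 458 and 523 CPM under DHA against 108, 96.8 and 111 CPM in control medium. TFRC was already high in control sh-IGFBP6 cells, and its rises of 0.45 ± 0.05 and 2.18 ± 0.07 differed by -1.73 ± 0.09 (adjusted p = 1.08e-33).

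**Figure D3:**
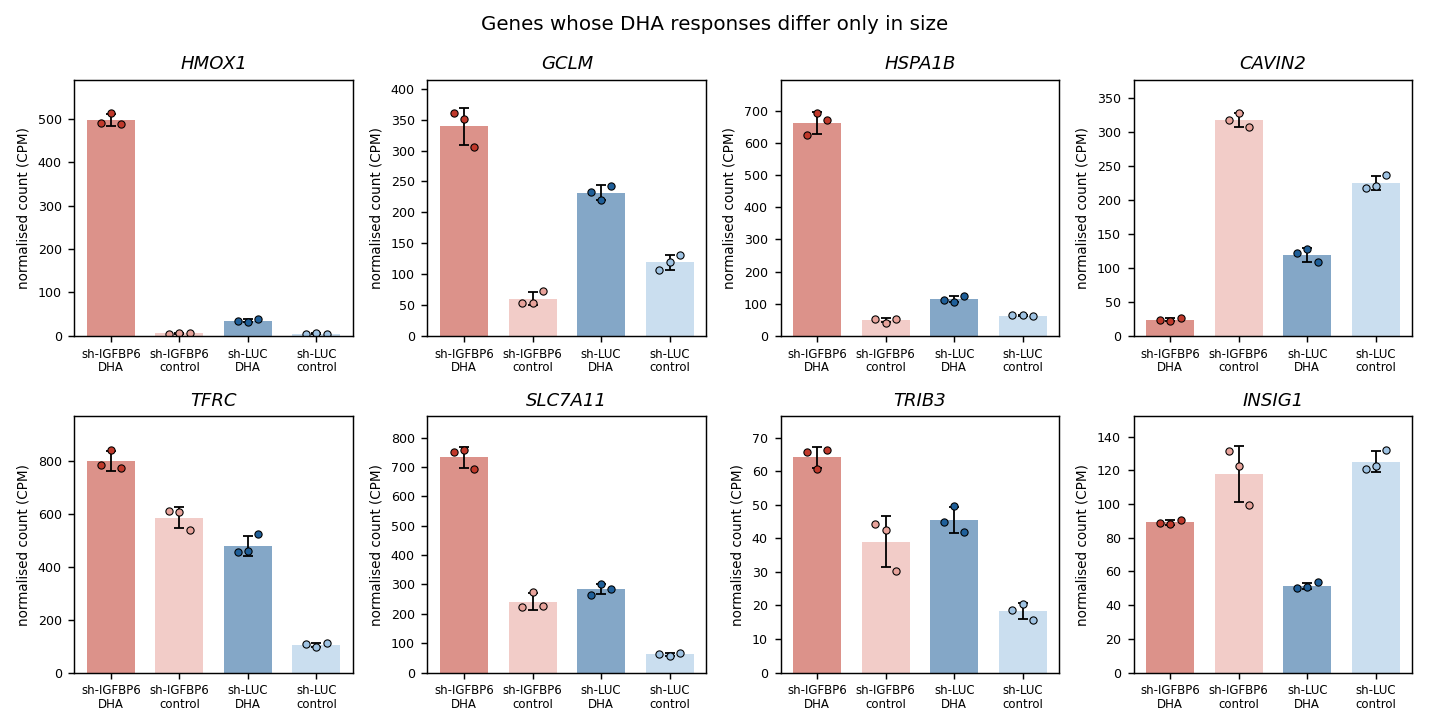
Normalised counts (CPM, vertical, from 0) of 8 genes whose DHA responses ran the same way in both lines and differed in size, with bars for means of 3 libraries, error bars for standard deviations and points for libraries, in sh-IGFBP6 cells under DHA and in control medium and sh-LUC cells under DHA and in control medium. HMOX1 and HSPA1B are close to the baseline except in treated sh-IGFBP6 cells, whereas TFRC and SLC7A11 start low in control sh-LUC cells and rise there by the larger fold.

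NRF2 target genes rose in both lines and mostly differed in size. Of 29 tested 28 rose in sh-IGFBP6 cells and 18 in sh-LUC cells, and the rest were not called; 18 were higher in the sh-IGFBP6 response and 1, SLC7A11, was lower, 13 of these 19 by size only and 6 with a rise called in 1 line. HMOX1, which encodes the haem-degrading enzyme heme oxygenase 1 (chr22:35380361-35394214, plus strand), had 490.1, 513 and 489 CPM in sh-IGFBP6 cells under DHA against 5.16, 7.43 and 6.32 CPM in control sh-IGFBP6 cells. In sh-LUC cells HMOX1 had 33.6, 32.6 and 39.5 CPM under DHA against 4.55, 6.09 and 4.59 CPM in control medium. The control levels differed by 0.35 ± 0.26 log2 between the lines, both lines rose, and the rises of 6.26 ± 0.17 and 2.79 ± 0.21 differed by 3.47 ± 0.27 log2 (adjusted p = 2.91e-17). GCLM, the modifier subunit of the enzyme that limits glutathione synthesis, had 360.5, 352 and 305 CPM against 53.9, 53.9 and 71.9 CPM in sh-IGFBP6 cells. In sh-LUC cells GCLM had 234, 219 and 243 CPM against 107, 119 and 132 CPM. The sh-IGFBP6 level of GCLM was the lower one in control medium and the higher one under DHA. Its catalytic partner GCLC rose by 1.94 ± 0.09 and 0.49 ± 0.11, the thioredoxin reductase TXNRD1 by 1.96 ± 0.05 and 0.70 ± 0.05, and the autophagy receptor SQSTM1 by 2.56 ± 0.06 and 0.99 ± 0.06. ABCC3, an efflux pump for conjugates, had a rise called in sh-IGFBP6 cells (1.52 ± 0.12, against -0.03 ± 0.06 in sh-LUC cells, adjusted p = 0.840), with a difference of 1.54 ± 0.13.

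Iron and ferroptosis genes otherwise divided. The ferritin chains FTH1 and FTL, which store iron, rose by 2.47 ± 0.08 and 1.40 ± 0.05 log2 in sh-IGFBP6 cells and by 1.01 ± 0.09 and 0.80 ± 0.05 in sh-LUC cells. PTGS2, the prostaglandin synthase often used as a ferroptosis marker, had 259, 272 and 233 CPM in sh-IGFBP6 cells under DHA against 36.1, 40.1 and 39.5 CPM in control sh-IGFBP6 cells. In sh-LUC cells PTGS2 had 21.9, 23.3 and 24.9 CPM under DHA and 20.1, 19.2 and 21.9 CPM in control medium. Only the sh-IGFBP6 groups were apart. SAT1, a polyamine acetyltransferase, reversed, with 1.59 ± 0.11 (adjusted p = 2.56e-25) in sh-IGFBP6 cells and -0.55 ± 0.08 (adjusted p = 1.06e-07) in sh-LUC cells. In all, 7 of 30 ferroptosis genes were higher in the sh-IGFBP6 response and 4 lower (36.7%, beside 21.8% of all genes). That balance turned to 6 and 8 with library totals in place of TMM. GPX4, the lipid peroxidase that blocks ferroptosis, had 74.8, 83.7 and 93.6 CPM against 121, 108 and 118 CPM in sh-IGFBP6 cells. In sh-LUC cells GPX4 had 143, 132 and 135 CPM against 198, 194 and 201 CPM. It fell in both lines, and the difference was 0.09 ± 0.10 log2 with a 95% interval of -0.11 to 0.29. ACSL4, which loads polyunsaturated fatty acids into phospholipids, had a difference of -0.08 ± 0.10 and an interval of -0.27 to 0.12.

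Among the genes that fell in both lines, CAVIN2, which shapes caveolae (chr2:191834302-191847255, minus strand), had the smallest adjusted p of all 14250 genes. It had 23.8, 22.2 and 25.9 CPM in sh-IGFBP6 cells under DHA against 318, 328 and 307 CPM in control sh-IGFBP6 cells. In sh-LUC cells CAVIN2 had 122, 128 and 108 CPM under DHA against 218, 220.0 and 237 CPM in control medium. The falls of -3.75 ± 0.10 and -0.92 ± 0.06 differed by -2.83 ± 0.12 log2 (adjusted p = 1.71e-42). ARNT2, a partner of bHLH-PAS transcription factors, responded by -2.14 and -0.61. The synaptic release protein RIMS2 responded by -2.21 and -0.61 and the transcription cofactor LMO3 by -2.15 and -0.72. For both, the smaller sh-LUC fall was lost without sh-LUC DHA library 3 (adjusted p = 0.0620 for RIMS2 and 0.0621 for LMO3), control library 2 (0.0697 and 0.210) or control library 3 (0.105 and 0.0561), and for LMO3 also without DHA library 1 (0.0622).

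Sterol genes fell in both lines, and where they differed the larger falls were mostly in sh-LUC cells. Of 25 tested 20 fell in sh-IGFBP6 cells and 21 in sh-LUC cells. In the sh-IGFBP6 response 6 were higher and 2 lower (32%, beside 21.8% of all genes). With library totals in place of TMM the balance was 4 and 4. INSIG1, which holds SREBP in the endoplasmic reticulum and is itself an SREBP target, had 88.8, 88 and 90.7 CPM in sh-IGFBP6 cells under DHA against 131, 123 and 99.5 CPM in control sh-IGFBP6 cells. In sh-LUC cells INSIG1 had 50.2, 50.8 and 53.5 CPM under DHA against 121, 123 and 132 CPM in control medium. The falls of -0.40 ± 0.08 and -1.29 ± 0.08 differed by 0.89 ± 0.11 (adjusted p = 1.58e-10). HMGCS1, the enzyme that makes HMG-CoA, fell by 0.25 and 0.83 log2; the smaller fall was not called without control sh-IGFBP6 library 2 (adjusted p = 0.0602). Outside the list, larger falls in sh-LUC cells were those of LLGL2, a polarity protein (-0.92 ± 0.17 in sh-IGFBP6 cells and -1.73 ± 0.11 in sh-LUC cells), ANKRD1, a target of YAP (-0.41 ± 0.06 and -1.16 ± 0.05), and HEG1, a junctional receptor (-0.39 ± 0.07 and -1.11 ± 0.05).

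For several genes that DHA and other polyunsaturated fatty acids act on directly, no difference was called. The desaturase SCD had 499, 531 and 479.7 CPM in sh-IGFBP6 cells under DHA against 1277, 1296 and 1014 CPM in control sh-IGFBP6 cells. In sh-LUC cells SCD had 416, 430.0 and 432 CPM under DHA against 1054, 1143 and 1155 CPM in control medium. SCD fell in both lines, and the difference was 0.15 ± 0.08 log2 (95% interval -0.02 to 0.31). FADS1 and FADS2, the desaturases of polyunsaturated fatty acid synthesis, had differences of 0.02 ± 0.08 (interval -0.13 to 0.18) and 0.01 ± 0.08 (interval -0.14 to 0.17). PDK4 and CPT1A, PPAR targets that favour fatty acid oxidation, rose in both lines, with differences of -0.03 ± 0.36 (interval -0.75 to 0.68) and -0.13 ± 0.10 (interval -0.33 to 0.06). The sterol exporter ABCA1 fell in both, with a difference of -0.08 ± 0.35 (interval -0.77 to 0.62), and none of the 10 liver X receptor targets tested was called for the difference in edgeR's quasi-likelihood test or DESeq2 (1 at an unadjusted p below 0.05). The intervals of PDK4 and ABCA1 are the widest of these. PPAR targets that did differ went both ways. ANGPTL4, an inhibitor of lipoprotein lipase, rose by 4.51 ± 0.24 in sh-IGFBP6 cells and 3.13 ± 0.12 in sh-LUC cells. PLIN2, the main droplet coat protein, was counted with the lipid droplet genes. It had 244, 243 and 249 CPM in sh-IGFBP6 cells under DHA against 32.9, 46 and 40.3 CPM in control sh-IGFBP6 cells. In sh-LUC cells PLIN2 had 163, 149.7 and 162 CPM under DHA against 42.5, 41.4 and 38.5 CPM in control medium. Over the 31 PPAR and fatty acid oxidation genes tested, 3 were higher in the sh-IGFBP6 response and 5 lower. This share of 25.8% is near the 21.8% of all genes. The 5 lower ones included UCP2, ECI2 and HADH, with differences of -0.85, -0.96 and -0.57 log2 that stayed called under all 21 alternative settings. The 3 higher ones were ANGPTL4, TXNIP and PPARA, and the PPARA call was lost in 12 of these settings.

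Transcripts of the mitochondrial genome moved apart as a block. All 13 messenger RNAs were higher in the sh-IGFBP6 response, and 11 to 13 of them without any 1 library; 6 rose in sh-IGFBP6 cells and 11 fell in sh-LUC cells, with medians of 0.519 and -0.884 log2. MT-RNR2, the 16S ribosomal RNA, had 1999, 3515 and 2574 CPM in sh-IGFBP6 cells under DHA against 329.9, 397 and 830.1 CPM in control sh-IGFBP6 cells. In sh-LUC cells MT-RNR2 had 575, 374 and 251 CPM under DHA against 973, 1217 and 1175 CPM in control medium. MT-ND6, the complex I subunit read from the light strand, had 896, 759 and 581 against 357, 399.6 and 542 CPM in sh-IGFBP6 cells. In sh-LUC cells MT-ND6 had 282, 261 and 225 CPM against 434, 569 and 416 CPM. Treated and control libraries were apart in both lines for both genes, as their naming by rank required. Differences were 3.88 ± 0.58 (adjusted p = 0.00157) and 1.67 ± 0.30 (adjusted p = 0.00436). The sh-LUC fall of MT-RNR2 was lost without any 1 of sh-LUC DHA libraries 2 and 3, sh-LUC control libraries 1, 2 and 3, sh-IGFBP6 DHA library 3 and sh-IGFBP6 control library 2, with an adjusted p of up to 0.110. For MT-ND6 leaving out sh-LUC DHA library 2 or 3 or control library 2 removed the sh-LUC call (adjusted p of up to 0.0929), and leaving out sh-IGFBP6 DHA library 1 or 2 or control library 1 or 2 removed the sh-IGFBP6 call (up to 0.0704). The mitochondrial ribosomal RNAs took 0.294% to 0.504% of counts in sh-IGFBP6 cells under DHA and 0.0471% to 0.124% in control sh-IGFBP6 cells, against 0.0349% to 0.0817% in sh-LUC cells under DHA and 0.128% to 0.160% in control sh-LUC cells; the part of rRNA depletion in these results was not tested. In a fit that added all 6 libraries treated with the ferroptosis inducer erastin, 1 of which had 54.4% of its counts in these ribosomal RNAs, the differences of MT-RNR2 and MT-ND6 were not called (adjusted p = 0.261 and 0.130). In that edgeR fit the count of called messenger RNAs was 0 of 13 (adjusted p of 0.102 to 0.29, with 4 at an unadjusted p below 0.05). Without that library 12 of the 13 were called, and in the 12 libraries used here DESeq2 called 13, edgeR 9 with no filter on low counts and 7 at an adjusted p below 0.01.

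Autophagy and lysosome genes mostly stood higher in the sh-IGFBP6 response, 17 of 31 against 3 lower. GABARAPL1, an autophagosome protein of the ATG8 family, had 72.6, 66 and 63.5 CPM in sh-IGFBP6 cells under DHA against 15.2, 15.5 and 10.8 CPM in control sh-IGFBP6 cells. In sh-LUC cells GABARAPL1 had 37.3, 35.5 and 27.9 CPM under DHA and 42.5, 36.9 and 37.8 CPM in control medium. Its order between the lines crossed, with log2 ratios of sh-IGFBP6 over sh-LUC of 1.00 ± 0.09 under DHA and -1.48 ± 0.15 in control medium. CTSD, the lysosomal protease cathepsin D, and OPTN, an autophagy receptor, reversed, with 0.95 ± 0.09 and 0.46 ± 0.12 in sh-IGFBP6 cells and -0.30 ± 0.05 and -0.56 ± 0.08 in sh-LUC cells. Among p53 targets, in a line that carries mutant p53, 7 of 21 were higher and 1 lower (38.1%, beside 21.8% of all genes). CDKN1A, the cell-cycle inhibitor p21, had 154, 163 and 172 CPM in sh-IGFBP6 cells under DHA against 52.2, 49.6 and 47.9 CPM in control sh-IGFBP6 cells. In sh-LUC cells CDKN1A had 72, 72.4 and 81.5 CPM under DHA and 82.6, 86.3 and 77.8 CPM in control medium. Only the sh-IGFBP6 groups were apart, and the difference was 1.84 ± 0.11 (adjusted p = 9.05e-27).

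Of the remaining lists, 4 of 5 metallothionein and zinc export genes were higher in the sh-IGFBP6 response, among them MT1X, a metal-binding protein (1.76 ± 0.17 in sh-IGFBP6 cells and -0.03 ± 0.16 in sh-LUC cells) and the zinc exporter SLC30A1 (0.88 ± 0.09 and 0.04 ± 0.09). Interferon genes were higher for 7 of 26 and lower for 1 (30.8%, beside 21.8% of all genes). STAT2, a transducer of interferon signals, reversed at 0.20 log2 in sh-IGFBP6 cells and -0.55 in sh-LUC cells. Its sh-IGFBP6 rise was not called with library totals in place of TMM (adjusted p = 0.0963) or with no filter on low counts (0.121). At an adjusted p below 0.01 it was not called reversed either. In the insulin-like growth factor system 2 of 12 were higher and 4 lower (50%). Among them were the receptor substrates IRS2 (0.78 and 0.12) and IRS1 (-0.76 and -0.37) and the binding protein IGFBP3 (-1.01 and 0.26). Cytosolic ribosomal protein genes, which can serve as a steady set, were higher for 2 and lower for 2 of 32 (12.5%), with small changes; with library totals in place of TMM none was higher and 7 were lower. Luminal epithelial markers were higher for 1 and lower for 2 of 12 (25%), and fatty acid synthesis genes for 1 and 4 of 16 (31.2%). Both shares are near the 21.8% of all genes. Balances that depended on the scaling were those of hypoxia and glycolysis genes, higher for 5 and lower for 4 of 31 (3 and 8 with library totals), glutathione and thioredoxin enzymes, 7 and 2 of 27 (4 and 4), iron genes, 5 and 4 of 23 (5 and 7), and lipid droplet genes, 6 and 5 of 21 (1 and 6). In that order, the shares called were 29%, 33.3%, 39.1% and 52.4%.

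The promoter searches covered 11 pairs of an element and a list, chosen with results of these data known, and the 7 pairs not yet described follow. The antioxidant response element (TGAC and GCA with 3 bases between) was found in 1 of 22 NRF2 target promoters (4.55%, that of GCLM), against 3.04% of all those searched. The ATF4 element TGATGNAAT was found in 0 of 18 promoters of the integrated stress response, 0 of 12 of amino acid transporters and 1 of 16 of the transfer RNA synthetases (6.25%), against 0.538% of all. The sterol element TCACNCCAC was found in 1 of 18 cholesterol gene promoters (5.56%), against 1.1% of all, and in 0 of the 4 whose gene was called for the difference. The E2F element TTTCCCGC was found in 8 of 26 replication gene promoters (30.8%), against 2.61%, and the serum response element, in the single spelling searched, in 1 of 16 immediate early gene promoters (6.25%, that of EGR1), against 0.0566%. All were searched on both strands from 250 bases before to 50 after the start, and an absent match says only that these letters were not in this window. Among promoters of called members, the kappa B site was in 7 of 14 and the heat shock element in 2 of 11. The endoplasmic reticulum element was in 6 of 20 and TTTGAA, in mitotic genes, in 13 of 20. The shares describe the lists, and called members were not tested against the others.

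**Figure D4:**
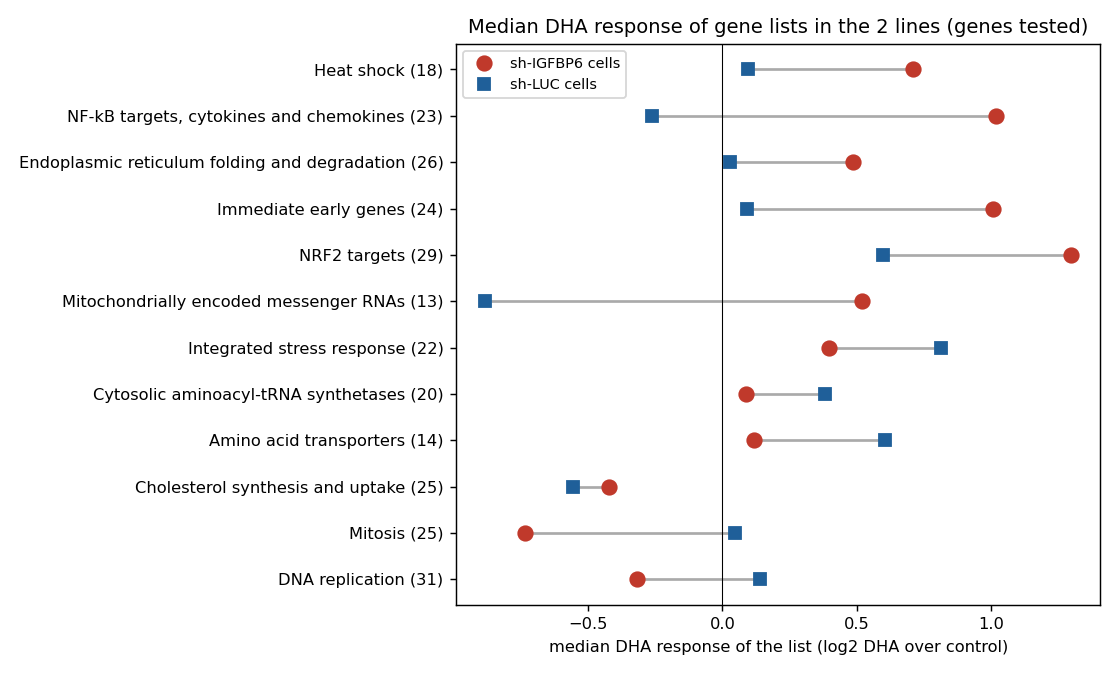
Median DHA response (horizontal, log2 DHA over control) of 12 gene lists in sh-IGFBP6 cells (circles) and sh-LUC cells (squares), with the number of genes tested in brackets; the lists were chosen with results of these data known. NF-kB targets and mitochondrially encoded messenger RNAs lie on opposite sides of zero in the 2 lines (1.02 and -0.261, and 0.519 and -0.884), as do replication genes (-0.318 and 0.14). Mitotic genes lie low in sh-IGFBP6 cells (-0.738) and near zero in sh-LUC cells (0.0477, with 19 of 25 not called). NRF2 targets and cholesterol genes lie on the same side in both.

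Among genes of at least 5 CPM with a response called in 1 line only, several of the largest differences lay outside these lists. TRIML2, a member of the tripartite motif family, had 120.2, 106 and 95.7 CPM in sh-IGFBP6 cells under DHA against 12.3, 11.2 and 9.48 CPM in control sh-IGFBP6 cells. In sh-LUC cells TRIML2 had 3.54, 4.98 and 4.51 CPM under DHA and 4.55, 4.81 and 5.61 CPM in control medium. BEST1, a chloride channel, rose by 3.56 ± 0.38 log2 in sh-IGFBP6 cells, with 0.31 ± 0.34 in sh-LUC cells at a mean of about 7 CPM. Falls called in sh-IGFBP6 cells and not in sh-LUC cells included CPED1 (-2.26 ± 0.27), the noncoding XACT (-2.07 ± 0.19) and LINC00342 (-1.95 ± 0.13) and the ubiquitin ligase NEURL1B (-1.89 ± 0.27), with sh-LUC responses of 0.13, -0.06, -0.04 and 0.12. Rises called in sh-LUC cells and not in sh-IGFBP6 cells included RGMB-AS1, an antisense transcript whose reads cannot be told from those of its partner without strand (-0.19 ± 0.14 in sh-IGFBP6 cells and 1.51 ± 0.37 in sh-LUC cells), and the collagen-processing enhancer PCOLCE2 (0.08 ± 0.18 and 1.77 ± 0.57). The PCOLCE2 difference (adjusted p = 0.0121) was not called by DESeq2 (adjusted p = 0.0660) or at a threshold of 0.01. PCOLCE2 was low in sh-LUC cells. It had 1.54, 0.849 and 1.35 CPM in the erastin-treated sh-LUC libraries. The estimate of 0.79 log2 above control was not called in edgeR's quasi-likelihood test (adjusted p = 0.2625). HAS2, a hyaluronan synthase, responded by -0.66 ± 0.28 in sh-IGFBP6 cells and rose by 0.96 ± 0.17 in sh-LUC cells; the sh-IGFBP6 response missed the threshold (adjusted p = 0.0508) and passed it, making the gene a reversed one, without sh-IGFBP6 DHA library 2 (0.00673) or control library 3 (0.0324), or any 1 of sh-LUC DHA libraries 1, 2 and 3 and control library 3 (up to 0.0496). CEMIP, a hyaluronan-degrading protein, had 5.07, 4.03 and 4.23 CPM in sh-IGFBP6 cells under DHA and 4.19, 3.51 and 2.63 CPM in control sh-IGFBP6 cells. In sh-LUC cells CEMIP had 137, 125 and 153 CPM under DHA against 346, 353 and 354 CPM in control medium. Its level in sh-IGFBP6 cells was low in all 6 libraries, the response there was 0.35 ± 0.29, and the fall was called in sh-LUC cells (-1.35 ± 0.06).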

How the data were processed

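Bulk RNA was measured in 18 libraries, of which the 12 of DHA-treated and control cells were used and the 6 treated with erastin entered only alternatives. The authors deposited 1 table of read counts per gene; trimming used cutadapt 4.4, alignment to GRCh38 STAR 2.7.7a and counting featureCounts, per the submitters' processing notes. Whether counting used strand is not given in the sources used here. Of 60712 lines, 2 named no gene and stayed out, with at most 0.0108% of a library. Gene positions came from GENCODE release 29, and promoter sequences from RefSeq (GRCh38.p14).

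The counts as deposited were fitted with edgeR 4.0.16 (R 4.3.3) over the 4 groups, with TMM scaling, the filterByExpr minimum of 10 counts (14250 genes kept) and the robust quasi-likelihood test, 8 residual degrees of freedom and Benjamini-Hochberg adjustment over all genes tested; an adjusted p below 0.05 was a call. Standard errors came from the fitted means and dispersions. CPM are counts scaled to a common size of the TMM-adjusted library. The series-wide fit over 18 libraries was an alternative here, because 1 erastin library held 609936 gene counts. The contrast was (sh-IGFBP6 DHA minus control) minus (sh-LUC DHA minus control) on the log2 scale. A called gene was reversed where both lines' responses were called with opposite signs, and differed only in size where both were called with the same sign; a mean of 1 CPM in each line was required. Named genes averaged 5 CPM or more, with treated and control libraries apart in each line whose response was called: up to 8 reversed genes in each direction ranked by the smaller of their responses, and up to 4 in each of the other 8 classes ranked by the difference. From each list up to 4 called members of smallest p, members called against the rest of their list, and a set of key genes were added; not all are printed. HSPA8, MMP1, histone and caveola genes were chosen after their values were seen. Tubulin, zinc finger and proteasome genes, and all genes of the mitochondrial genome, were also looked at as groups at that stage. Members and lists were chosen with earlier results of these data known. The test was checked on simulated counts. Alternatives were another scaling, library totals alone, no filter, DESeq2 1.42.0, thinning, a stricter threshold, the replicate number as a block, 17 or 18 libraries, and leaving out each library.

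Libraries of a group were compared and none were identical. Same-numbered libraries of different groups deviated together little: 3 of 18 pairs correlated above 0.1 (range -0.0803 to 0.17), so the numbers were not used to pair samples. Within sh-LUC cells, same-numbered treated and control libraries correlated at 0.141, 0.0295 and 0.113. Unlike-numbered ones there lay between -0.14 and 0.0205, so a weak pairing in that line is not excluded. The replicate number as a block was one of the alternatives.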

Additional observations from a re-analysis of the deposited data

Results flagged for a closer look

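The genes of the first kind listed here rose in sh-IGFBP6 cells and fell in sh-LUC cells, and their difference between the lines passed the test. The log2 difference was 3.88 for MT-RNR2, 2.60 for CXCL1, 2.31 for BMF, 2.11 for RNVU1-28, 1.84 for ID4, 1.67 for MT-ND6, 1.503 for TLCD2 and 1.45 for SIPA1L2.

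The genes of the opposite kind fell in sh-IGFBP6 cells and rose in sh-LUC cells. For them the log2 difference was -2.14 for SLCO4A1, -2.04 for GRB7, -1.98 for PTX3, -1.51 for MIR924HG, -1.46 for MSH5, -1.38 for CLMN, -1.35 for HMMR and -1.17 for NFIX. All 16 were chosen from genes that had passed edgeR's quasi-likelihood test of the difference, so that pass adds no support. Only 5 of the 16 stayed called reversed under all 21 alternative settings, and 14 kept the called difference. The differences of MT-RNR2 and MT-ND6 were not called in the fit of all 18 libraries.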

How the results depend on the processing

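Against 3112 called differences, 330 reversed genes and 259 that differed only in size, DESeq2 gave 2034, 167 and 172, and an adjusted p below 0.01 gave 1992, 149 and 147. Without the filter on low counts 2154 differences were called, 158 genes reversed and 155 differed only in size; with counts thinned to the smallest library 216 genes reversed. Leaving out 1 library at a time gave 2594 to 3095 called differences, 222 to 319 reversed genes, 183 to 253 that differed only in size and 1920 to 2252 with a response called in 1 line. With the replicate number as a block, although the numbers were not otherwise used to pair samples, 3211 differences were called, 331 genes reversed and 272 differed only in size. Of 192 genes with a called difference that were followed one by one, 159 kept the call under all 21 alternatives, 33 lost it under at least 1, and no sign turned; of 13 not called, 1 was called under some alternative. Of the 29 genes reversed by at least 1.5-fold in both lines, 15 were still called reversed at an adjusted p below 0.01, 18 with DESeq2, 19 with no filter or thinned counts and 24 with library totals in place of TMM. The depth of 2708143 to 7937608 counts limits genes below about 5 CPM, whose smaller response decides their class; 4714 genes had an unadjusted p below 0.05.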

Other observations

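Replication-dependent histone genes were looked at after their values were seen. Of 37 tested, 32 were called lower in the sh-IGFBP6 response and 5 were not called; 32 fell in sh-IGFBP6 cells and 18 rose in sh-LUC cells. Median responses were -0.614 log2 in sh-IGFBP6 cells and 0.19 in sh-LUC cells, and 17 were called reversed. H2BC17 had 157, 157 and 156 CPM in sh-IGFBP6 cells under DHA against 262, 223 and 237 CPM in control sh-IGFBP6 cells, and 256, 259 and 279.9 CPM in sh-LUC cells under DHA against 201, 214 and 219 CPM in control sh-LUC cells. Its responses were -0.61 ± 0.06 and 0.32 ± 0.06 log2. These genes are near-identical copies, and the division of reads among them is uncertain.

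The genes of caveolae were also looked at after CAVIN2 had been seen; of 5 tested, 4 were called lower in the sh-IGFBP6 response, CAVIN2 among them. The call of CAVIN1 (-0.22 ± 0.07, adjusted p = 0.0206) was lost in 11 of 21 alternative settings, among them DESeq2 and 7 of the 12 that left out a library. CAV1, the main coat protein, had 117, 122 and 102 CPM in sh-IGFBP6 cells under DHA against 302, 302 and 285 CPM in control sh-IGFBP6 cells, and 455, 449 and 477 CPM in sh-LUC cells under DHA against 633, 699 and 681 CPM in control sh-LUC cells. The difference was -0.83 ± 0.08 for CAV1 and -0.72 ± 0.16 for CAVIN3 (adjusted p = 1.45e-14 and 2.82e-04), and that of CAV2 was not called (-0.14 ± 0.13, adjusted p = 0.500). Other groups looked at in the same way differed less. Of 12 tubulin genes 5 were called lower and 7 were not called. Of 37 proteasome subunit genes 3 were higher and 34 were not called. Among 461 zinc finger genes named ZNF, 35 were higher, 26 lower and 400 not called, beside 21.8% of all genes called.

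The series also holds cells treated with erastin, a blocker of cystine import, which share the control libraries used here, so their values are given without comparison. The sh-IGFBP6 values under erastin rest on 2 libraries, since the third, with few gene counts, was left out. Under erastin BMF responded by 0.98 log2 in sh-IGFBP6 cells and -0.83 in sh-LUC cells, and under DHA by 1.55 and -0.75. NFIX responded by -0.46 and 0.54 under erastin and by -0.54 and 0.63 under DHA. SLCO4A1 responded by -0.59 and -1.86 under erastin and by -1.44 and 0.69 under DHA. Its sh-IGFBP6 value under erastin was not called in edgeR's quasi-likelihood test (adjusted p = 0.160).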
